A study of Mus musculus with 5 samples.

Results

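Integrins are paired receptors, each made of an α and a β subunit, that hold cells to the extracellular matrix (ECM). The genes described here encode 33 proteins of this system, which are 12 integrin α subunits, 8 integrin β subunits, the ECM ligand fibronectin (Fn1) and 12 proteins that link integrins to actin inside the cell. They were taken by symbol alone from a table of 23478 genes, as Itga1 to Itga11, Itgav, Itgb1 to Itgb8, Fn1, Vcl, Tln1, Tln2, Pxn, Ptk2, Ilk, Parva, Zyx, Bcar1, Tns1, Tns3 and Fermt2. The symbol pattern leaves out the leukocyte α subunits that carry a letter, such as Itgal and Itgam.

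RNA-Seq was conducted on 5 libraries of GFP-sorted lung cells collected on P6, after tamoxifen (100 µg per pup) on P0 and P1. All mice carried Gli1-CreERT2 and the Rosa26-eGFP reporter, so GFP marks cells in which Cre was active in the Gli1 lineage, and their progeny. The 2 control libraries came from Igf1r Flox/Wildtype mice, which can lose 1 copy of the IGF1 receptor gene, and the 3 Igf1r-deleted libraries came from Igf1r Flox/Flox mice, which can lose both. The mice of the study were of mixed background and of either sex, and how many pups stand behind each library is not given in the sources used here. Nothing states that the libraries of a genotype came from separate mice, so the p-values measure the spread between these libraries, which may be technical.

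Cells pull on the ECM through integrins. A ligand such as fibronectin binds the outer part of the receptor, talin and kindlin bind the tail of the β subunit inside the cell, vinculin and the complex of ILK with parvin tie the receptor to actin, and focal adhesion kinase (FAK) with paxillin and p130Cas turns binding into signaling. In the lung, integrin α8β1 is known as a receptor of mesenchymal cells, with nephronectin as a ligand, and αv integrins are known to activate latent TGF-β. The comparison of the genotypes asks whether cells that lost Igf1r had other transcript levels of this machinery.

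Library totals were 35116766 to 37597857 counts. Transcript levels are in CPM (counts of a gene scaled to 1 common library size) after scaling by TMM factors, which correct for library composition. Igf1r itself had 324 CPM in both controls and 140, 177 and 194 CPM for replicates 1, 2 and 3 with Igf1r deleted, so the deleted gene was lower in every library labelled as deleted (log2 fold change −0.93, edgeR adjusted p = 0.354, DESeq2 adjusted p = 1.06e-05). Fibroblast markers had the largest sum, with 31593 to 44025 CPM over 15 markers, most of it from Eln, Col3a1, Col1a2 and Col1a1. Such sums weigh genes by how abundant their transcripts are and are not shares of cells. Markers of other cells were present in every library, with sums of 642 to 1362 CPM for 19 epithelial, 497 to 1113 CPM for 15 endothelial, 281 to 890 CPM for 24 hematopoietic, 345 to 454 CPM for 7 mesothelial and 1065 to 1392 CPM for 11 pericyte markers, and no marker of the epithelial, endothelial or hematopoietic list was at 0 in any library. Of the pericyte sum, 473 to 653 CPM came from Postn, which is also on the list of other integrin ligands used below. Each cell type was checked only by RNA.

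No adhesion gene stood out from the spread between libraries once p-values were adjusted, and the log2 fold changes ran from −0.71 (Itgb2) to 0.87 (Itgb8). All 33 genes passed the filter on low counts, and edgeR's quasi-likelihood test gave 0 of the 33 an adjusted p-value under 0.05, as for 0.00% of all 15298 genes tested. An unadjusted p-value under 0.05 was found for 2 of the 33, beside 12.4% of all genes. Both, Ptk2 and Itgb8, were higher with Igf1r deleted, as were 5.65% of all genes, and 0 of the 33 were lower, as were 6.75% of all genes. DESeq2's Wald test called 0 of the 33, beside 1.70% of the genes to which it gave an adjusted p, and by that test 4 (Fn1, Itgb8, Ptk2 and Tns1) had an unadjusted p-value under 0.05, beside 13.2% of all genes. The genotypes did not overlap in 5 of the 33, beside 31.0% of all genes. All Igf1r-deleted libraries were below both controls for Fn1 and Tns1 (14.9% of all genes) and above them for Ptk2, Itgb8 and Ilk (16.0% of all genes). Of the 33, 19 had a log2 fold change (Igf1r-deleted minus control) above 0, as had 52.3% of all genes, and 14 below, as had 47.7%. Their median was 0.039, beside 0.015 over all genes.

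**Figure D1:**
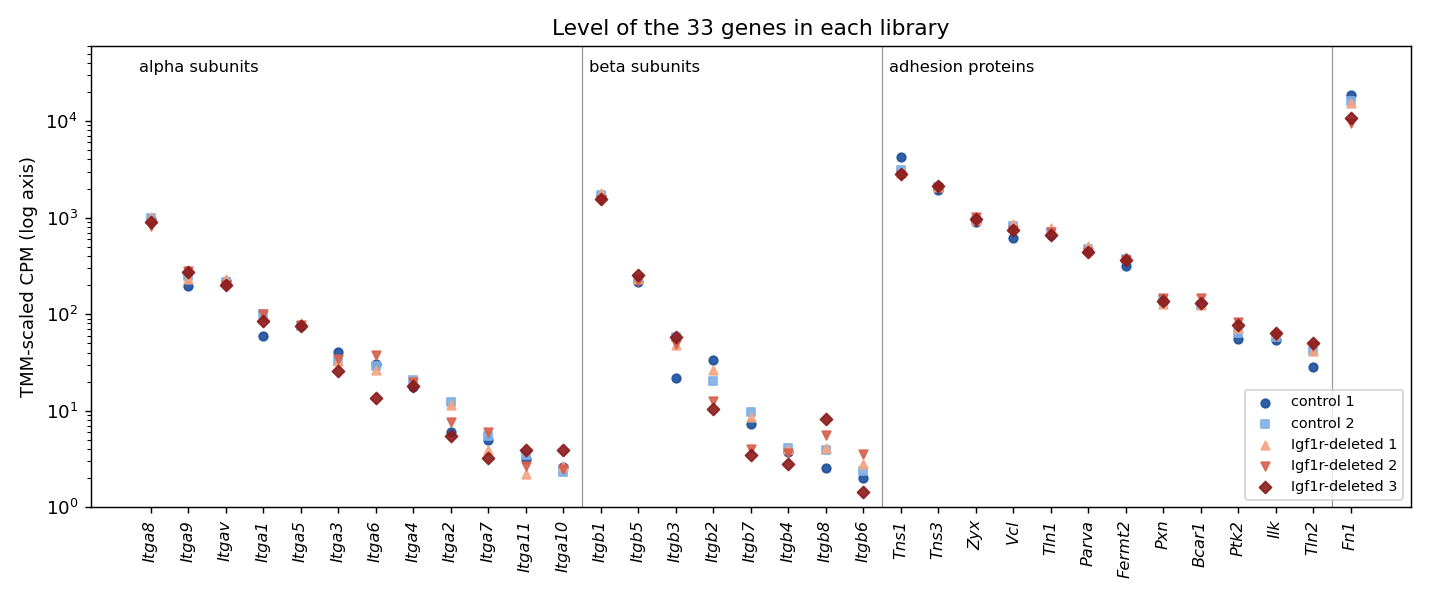
TMM-scaled CPM (log axis) of the 33 genes in each of the 5 libraries, grouped as α subunits, β subunits, adhesion proteins and Fn1 and ordered by the control mean within a group; blue symbols are control libraries and red or orange symbols Igf1r-deleted libraries. For most genes the 5 symbols nearly coincide, and wider spreads are seen in low genes such as Itgb8 and Itgb7 and in Itgb2, Itgb3 and Fn1.

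Fibronectin was the most abundant transcript of the set and took 1.02% to 1.78% of all counts of a library. It lies on the minus strand at chr1:71585520-71653200 of mm10, and 2.50% of its exon length overlaps the annotated antisense gene Apol7d. Fn1 had 18488 and 16143 CPM in control replicates 1 and 2, and 15556, 9625 and 10716 CPM for replicates 1, 2 and 3 with Igf1r deleted. The Igf1r-deleted libraries all lay below the controls, but replicate 1 was close to control replicate 2 while replicates 2 and 3 were far below. The log2 fold change was −0.53 (95% interval −1.09 to 0.023), and the edgeR adjusted p was 0.409. Because Fn1 made up 44.6% to 58.6% of the summed CPM of the 33 genes, the sum of the set was 31534 and 28843 CPM for the control pair against 28359, 21597 and 22775 CPM with Igf1r deleted. Without Fn1 the sums were 11971 to 13046 CPM across all 5 libraries. Splice forms of fibronectin, such as those with the extra domain A, cannot be read from gene counts.

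Fn1 and the receptor subunit that binds it were set side by side within each library. Fn1 had 11.1 and 9.44 counts for each Itgb1 count in the controls, and 8.60, 6.32 and 6.85 in the Igf1r-deleted libraries, which again do not overlap.

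Among the β subunits, Itgb1, the common partner of most matrix-binding α subunits, was by far the highest per length of exon. Its share of the summed CPM per kilobase of the 8 β subunits was 81.5% to 83.9% in the 5 libraries. Itgb1 had 1666 and 1710 CPM for the control pair and 1810, 1523 and 1564.5 CPM for replicates 1, 2 and 3 with Igf1r deleted. The Igf1r-deleted libraries lay on both sides of the controls. Between genotypes the log2 fold change was −0.048 with a 95% interval of −0.35 to 0.26, and it was 0.022 with library totals in place of TMM, so no direction is given.

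Itgb5, which pairs with αv to bind vitronectin, came second with 12.3% to 15.1% of the β subunits per kilobase. It had 213 and 232 CPM for the control pair and 233, 223 and 253 CPM with Igf1r deleted, and the 2 genotypes overlapped (log2 fold change 0.085, 95% interval −0.16 to 0.33). Itgb3, the other vitronectin-binding partner of αv, took 0.762% of the β subunits in control replicate 1 and 1.53% to 2.07% in the other 4 libraries.

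**Figure D2:**
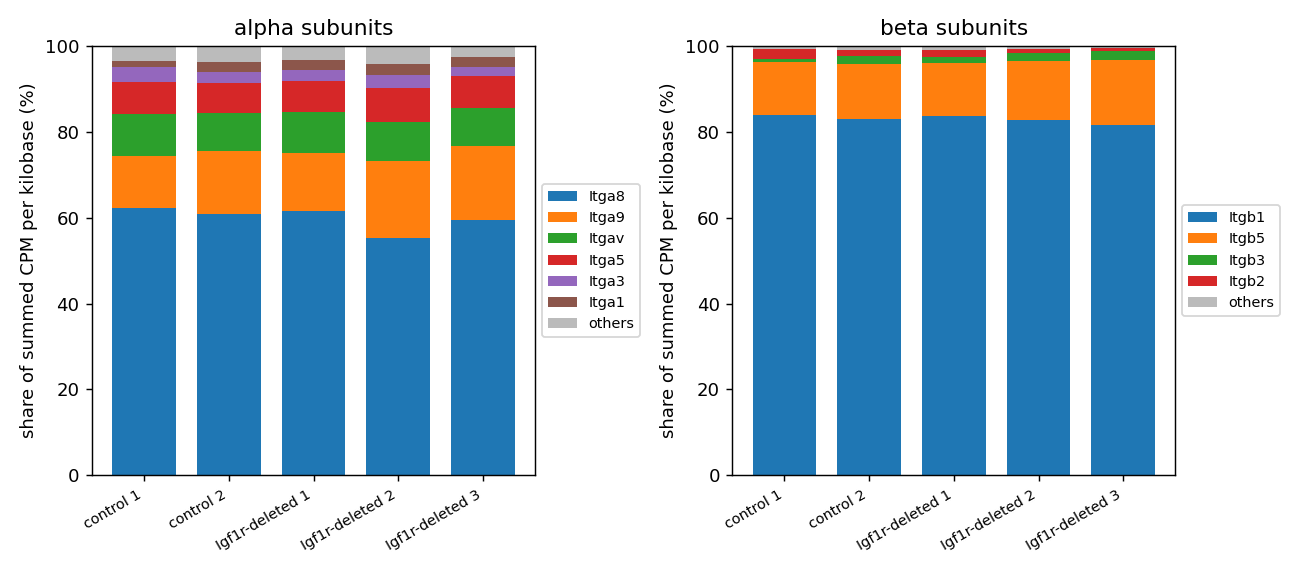
Share of each subunit in the summed CPM per kilobase of exon (%), for the 12 α subunits (left) and the 8 β subunits (right), with 1 bar per library and less abundant subunits joined as others. Itga8 fills 55.2% to 62.3% of the α bars and Itgb1 81.5% to 83.9% of the β bars in all 5 libraries.

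Itga8 encodes the α8 subunit and lies on the minus strand at chr2:12106632-12301922. It held 62.3% and 60.8% of the summed CPM per kilobase of the α subunits in the controls, and 61.5%, 55.2% and 59.4% in Igf1r-deleted replicates 1, 2 and 3. Itga8 had 961 and 993 CPM for the control pair against 1012, 823 and 910 CPM, which places the Igf1r-deleted libraries on both sides of the controls. The log2 fold change was −0.095 with a 95% interval of −0.39 to 0.20.

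The α subunits next in order per kilobase were Itga9, Itgav and Itga5. Itga9, whose product binds tenascin C and other ligands, had 195 and 250 CPM for the control pair and 234, 278 and 275 CPM with Igf1r deleted. Control replicate 1 was the lowest, and control replicate 2 lay above Igf1r-deleted replicate 1. For Itga9 the log2 fold change was 0.24 (95% interval −0.095 to 0.57), and 0.066 without control replicate 1 or 0.41 without control replicate 2. Its share of the α subunits per kilobase was 12.1% and 14.6% in the controls and 13.6%, 17.9% and 17.2% in the Igf1r-deleted libraries. Itgav, the RGD-binding αv subunit, had 219 and 216 CPM against 228.5, 201 and 201 CPM (a log2 fold change of −0.048, 95% interval −0.29 to 0.19, and 0.023 with library totals). Itga5, the α subunit of the classic fibronectin receptor, had 77.3 and 74.7 CPM for the control pair and 81.0, 77.7 and 75.5 CPM with Igf1r deleted. All 5 values of Itga5 lay close together, and its log2 fold change was 0.039 with a 95% interval of −0.18 to 0.25.

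Of the other α subunits, Itga3 and Itga6, which bind laminins, had log2 fold changes of −0.24 and −0.21. The intervals were −0.62 to 0.13 for Itga3 and −1.04 to 0.63 for Itga6, and Itga6 was spread widely within the Igf1r-deleted libraries, at 26.1, 37.8 and 13.6 CPM. Pecam1, an endothelial marker, followed the same order there, at 78.9, 120 and 40.2 CPM. So did the summed epithelial markers, at 946.5, 1362 and 642 CPM. The part of endothelial or epithelial RNA in Itga6 was not tested. Itga4, Itga7, Itga10 and Itga11 had control means of 19.2, 5.22, 2.44 and 3.30 CPM and intervals that all included 0. Itga10 is uncertain, since the annotated gene Gm42957 on the same strand covers 33.5% of its exon length. Across the 12 α subunits neither edgeR nor DESeq2 gave a gene an unadjusted p-value under 0.05, beside 12.4% and 13.2% of all genes. The genotypes overlapped in all 12, whereas they did not overlap in 31.0% of all genes.

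Itgb8, which encodes the β8 partner of αv, was higher in every Igf1r-deleted library. It lies on the minus strand at chr12:119158022-119238802. Itgb8 had 2.56 and 3.93 CPM for the control pair and 4.11, 5.58 and 8.13 CPM for replicates 1, 2 and 3 with Igf1r deleted, from 89 to 292 counts per library. Igf1r-deleted replicate 1 was barely above control replicate 2, and replicate 3 was the highest. Between genotypes the log2 fold change was 0.87 (95% interval 0.058 to 1.68, unadjusted p = 0.0389, edgeR adjusted p = 0.395). It was 0.57 without Igf1r-deleted replicate 3 and 1.20 without control replicate 2. Itgb4, the partner of α6 in binding laminin, had 3.74 and 4.07 CPM for the control pair and 3.97, 3.62 and 2.78 CPM with Igf1r deleted, with overlap (log2 fold change −0.18, 95% interval −0.76 to 0.41). Per kilobase Itgb8 and Itgb6 were the lowest β subunits in the controls, with control means of 0.294 and 0.307 CPM per kilobase against 413.5 for Itgb1, and Itgb6 was the lower of them in control replicate 2.

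Itgb2 and Itgb7, the β subunits of leukocyte integrins, had the lowest log2 fold changes of the 33 genes, at −0.71 and −0.67. Itgb2 had 33.4 and 20.1 CPM for the control pair and 26.2, 12.5 and 10.3 CPM for replicates 1, 2 and 3 with Igf1r deleted. Itgb7 had 7.29 and 9.74 CPM for the control pair and 8.67, 3.97 and 3.48 CPM with Igf1r deleted. In both genes Igf1r-deleted replicate 1 lay between the 2 controls, and replicates 2 and 3 lay below. By edgeR the adjusted p was 0.482 for Itgb2 and 0.502 for Itgb7. Without Igf1r-deleted replicate 1 the log2 fold changes were −1.23 and −1.20, and that of Itgb2 was −0.30 without control replicate 1.

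The summed markers of blood cells, like these 2 subunits, were lowest in Igf1r-deleted replicates 2 and 3. Across the controls the sum was higher in replicate 1, as for Itgb2, while Itgb7 was lower there. The 24 hematopoietic markers in the table summed to 890 and 563 CPM for the control pair and 699, 426 and 281 CPM for replicates 1, 2 and 3 with Igf1r deleted, and 21 of the 24 had a log2 fold change below 0. Lyz2 was the largest part of each sum, at 379 and 266 CPM for the control pair and 317, 254 and 142 CPM with Igf1r deleted. S100a8 and S100a9 had 62.9 and 103 CPM in control replicate 1 and 18.1 and 25.9 CPM in control replicate 2. Ptprc, which encodes CD45, had 31.1 and 25.5 CPM against 28.7, 12.5 and 12.2 CPM. Itgb2 had 0.788 to 1.07 counts for each Ptprc count in the 5 libraries. A list of 8 genes with other symbols that start with Itg includes the leukocyte subunits Itgal, Itgam and Itgax and the platelet subunit Itga2b. It also holds the integrin-like gene Itgbl1 (log2 fold change −0.45). Of the list 7 were tested and all 7, Itgbl1 among them, had a log2 fold change below 0 (median −0.38). When control replicate 1 was left out 8 were tested and 5 were below 0, with Itgam and Itgb2l among those above (median −0.15). The median was −0.13 without Igf1r-deleted replicate 3, −0.22 without Igf1r-deleted replicate 2, −0.79 without Igf1r-deleted replicate 1 and −0.65 without control replicate 2. Itgal, Itgam, Itgax and Itga2b are also on the hematopoietic list, and the part of leukocyte RNA in Itgb2 and Itgb7 was not tested. In sorted bulk cells, fewer cells of a type and less RNA per cell cannot be told apart.

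**Figure D3:**
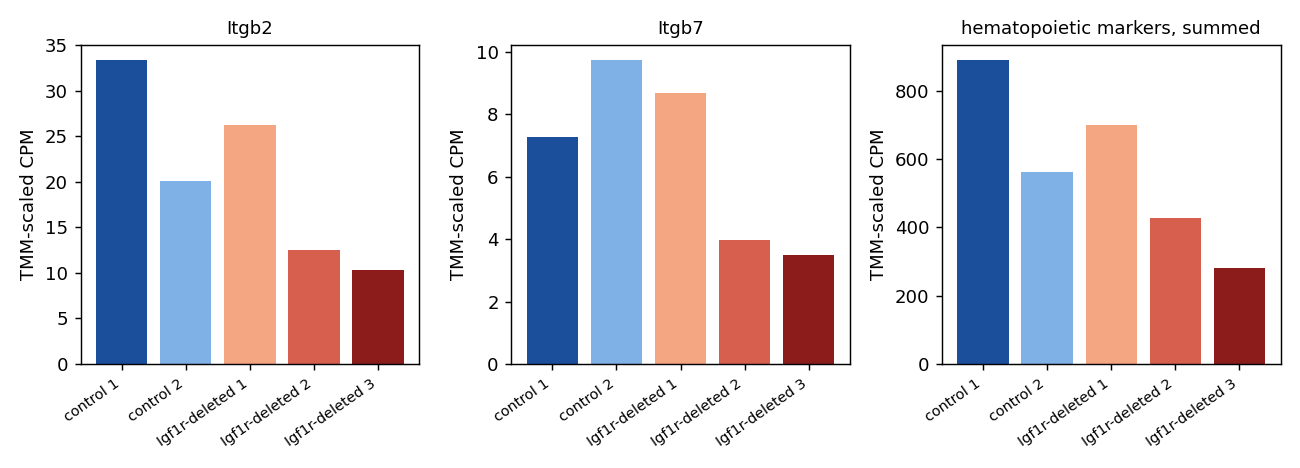
TMM-scaled CPM of Itgb2 (left), Itgb7 (middle) and the sum of the hematopoietic markers (right), with 1 bar per library. Igf1r-deleted replicates 2 and 3 have the lowest bars in all panels, and Igf1r-deleted replicate 1 lies within the range of the controls.

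Of the 12 adhesion proteins inside the cell, 10 had a log2 fold change above 0 (median 0.084), beside 52.3% of all genes. Without control replicate 1 there were 7 of the 12, with Fermt2, Parva and Vcl below 0 and a median of 0.0043. The highest per kilobase were the tensins and zyxin, which sit on the actin side of adhesions. Tns1 lies on the minus strand at chr1:73910231-74124449 and had 4229 and 3115 CPM for the control pair, and 2911, 2786 and 2802 CPM with Igf1r deleted. The Igf1r-deleted libraries were close together below both controls, while control replicate 1 stood far above control replicate 2. The log2 fold change of Tns1 was −0.37 (95% interval −0.75 to 0.0052, unadjusted p = 0.0525, edgeR adjusted p = 0.402), and −0.14 without control replicate 1.

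Tns3, the other tensin of the set, had 1917 and 2063 CPM for the control pair and 2083, 2033 and 2116 CPM with Igf1r deleted. Its log2 fold change was 0.062 (95% interval −0.22 to 0.34), with overlap between the genotypes. For each Tns1 count there were 0.453 and 0.662 Tns3 counts in the controls, and 0.716, 0.730 and 0.755 in the Igf1r-deleted libraries. Zyx had 891 and 949 CPM against 935, 1006 and 960 CPM, with a log2 fold change of 0.072 (95% interval −0.18 to 0.33).

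Talin 1, kindlin 2 and vinculin carry force from the integrin tail to actin. Tln1 had 659 and 714 CPM for the control pair and 786, 708 and 662 CPM with Igf1r deleted (log2 fold change 0.066, 95% interval −0.22 to 0.35). Fermt2, which encodes kindlin 2, had a log2 fold change of 0.11 (95% interval −0.15 to 0.38). Vcl had 621 and 809.5 CPM for the control pair and 865, 736 and 735 CPM with Igf1r deleted, so the controls enclosed 2 of the 3. For Vcl the log2 fold change was 0.12 (95% interval −0.23 to 0.48), and −0.061 without control replicate 1. Ap3m1 on the opposite strand covers 25.5% of the exon length of Vcl, which makes its counts uncertain. Tln2, the second talin, had 28.5 and 41.6 CPM for the control pair against 41.5, 46.6 and 50.3 CPM, where control replicate 2 and Igf1r-deleted replicate 1 nearly coincided (log2 fold change 0.40, 95% interval −0.0068 to 0.80, and 0.15 without control replicate 1).

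Promoters were read because vinculin is a known target of serum response factor, which binds the CArG box and links actin tension to transcription. RefSeq promoters on GRCm38.p6, from 250 bases before to 50 after a start, were found for 23 of the 33 genes, with 27 promoters. A CArG box was present in 3 of the 27 (11.1%), against 1.63% of 32851 promoters of the same length. The 3 include Vcl, for which the box was chosen, so the share is not read as an enrichment. The matches are printed with their flanks, the CArG box in capitals, since they are the feature that these promoters share. The sites lie before a RefSeq start at chr14:20929161-20929190 on the plus strand (Vcl), chr14:45530250-45530279 on the minus strand (Fermt2) and chr2:60673724-60673753 on the minus strand (Itgb6). That start of Itgb6 lies inside the gene as GENCODE M21 annotates it (chr2:60598292-60722643).
Vcl: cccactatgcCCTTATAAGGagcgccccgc
Fermt2: tccttcatttCCATAAAAGGgcagcgctcc
Itgb6: cacctgacttCCTTATAAGGtgaatgagga
The capitals of the Vcl site and of the Itgb6 site are identical. Neither Vcl nor Fermt2 differed between the genotypes beyond the spread of the libraries, as given above, and Itgb6, an epithelial β subunit, had 2.02 and 2.35 CPM for the control pair and 2.81, 3.55 and 1.45 CPM with Igf1r deleted. The letters GGAATG, a core of sites bound by TEAD factors, were present on either strand in 3 of the 27 promoters (Itga10, Itgb1 and Vcl), or 11.1%, against 14.7% of all promoters, and the AP-1 letters TGACTCA in 2 (Itga9 and Zyx), or 7.41%, against 5.20%. A match is a description of letters and not a shown site.

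Ptk2, which encodes FAK, had the smallest p-value of the 33 genes and ranked 632 of all 15298. It lies on the minus strand at chr15:73205102-73423280. Ptk2 had 55.4 and 64.2 CPM for the control pair and 71.2, 83.1 and 76.3 CPM for replicates 1, 2 and 3 with Igf1r deleted. Every Igf1r-deleted library lay above both controls. Between genotypes the log2 fold change was 0.36 (95% interval 0.091 to 0.63, unadjusted p = 0.0156, edgeR adjusted p = 0.354). With each library left out in turn it ran from 0.26 to 0.46, and the unadjusted p was above 0.05 when control replicate 1 or Igf1r-deleted replicate 2 was left out.

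The partners of FAK in signaling had log2 fold changes nearer to 0. Pxn (paxillin) had 134 and 144 CPM for the control pair and 127, 148 and 137 CPM with Igf1r deleted, with a log2 fold change of −0.020 (95% interval −0.27 to 0.23) that was 0.055 with library totals. Bcar1, which encodes p130Cas, had a log2 fold change of 0.096 (95% interval −0.15 to 0.34). Ilk had 53.9 and 57.8 CPM for the control pair and 66.0, 58.8 and 64.3 CPM with Igf1r deleted, all above both controls by a small margin (log2 fold change 0.18, 95% interval −0.060 to 0.41, edgeR adjusted p = 0.489). The counts of Ilk are uncertain, since Rrp8 and Taf10 on the opposite strand cover 89.7% of its exon length and no source says that counting used the strand. Parva, which encodes the α-parvin that binds ILK, had 446 and 468 CPM against 514, 441 and 445 CPM, with a log2 fold change of 0.031 (95% interval −0.24 to 0.30).

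**Figure D4:**
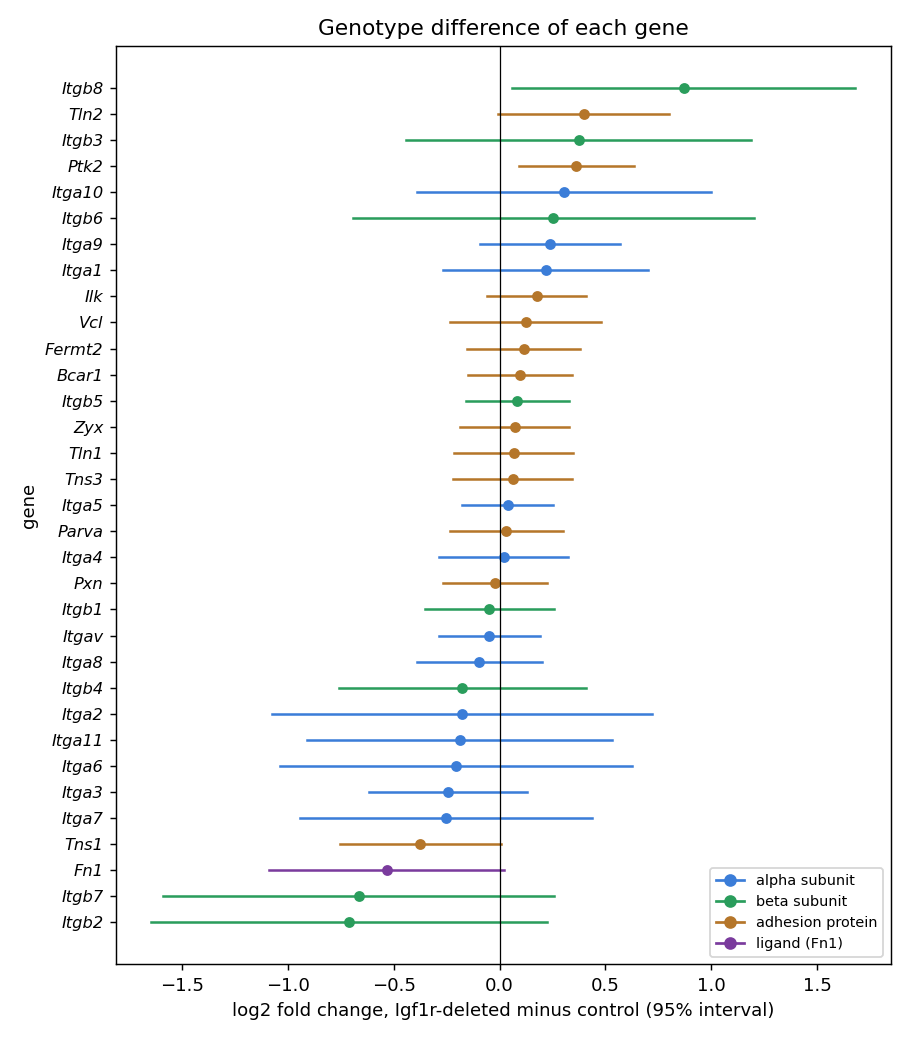
Log2 fold change (Igf1r-deleted minus control) of the 33 genes with its 95% interval from edgeR's quasi-likelihood fit, coloured by class and ordered by value. The intervals of Itgb8 and Ptk2 lie above 0 and the other 31 intervals include 0.

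The 2 controls stood apart from each other in several genes. For 18 of the 33 genes the gap between the 2 controls on the log2 scale was larger than the difference between the genotype means, as for 51.4% of all genes tested, and a gap between single libraries is not on the same footing as a difference of means. Control replicate 1 was the lowest of the 5 libraries for 14 of the 33 genes (42.4%), beside 28.0% of all genes, and the highest for 4 (12.1%), beside 26.4% of all genes. Itgb3 was the clearest case, with 21.9 CPM in control replicate 1, 57.5 CPM in control replicate 2 and 47.8, 49.3 and 57.3 CPM with Igf1r deleted. Its log2 fold change was 0.37, and −0.17 without control replicate 1 or 1.22 without control replicate 2.

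Itga1 and Itga2, the collagen-binding subunits of α1β1 and α2β1, lie 21.0 kilobases apart on chromosome 13, Itga2 at chr13:114833081-114932100 and Itga1 at chr13:114953096-115101964. Itga1 had 59.6 CPM in control replicate 1, 100 CPM in control replicate 2 and 93.8, 99.3 and 85.3 CPM for replicates 1, 2 and 3 with Igf1r deleted. Itga2 had 5.99 and 12.3 CPM for the control pair and 11.4, 7.57 and 5.43 CPM with Igf1r deleted. Both neighbours were lower in control replicate 1 than in control replicate 2, but among the Igf1r-deleted libraries they took different orders. These 2 genes, with Itga6, Itga9, Itgb2, Itgb3, Itgb4, Itgb5, Itgb6, Itgb7, Parva, Tln2, Tns3 and Zyx, and Npnt among the ligands, were chosen for values by library after their values were seen.

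**Figure D5:**
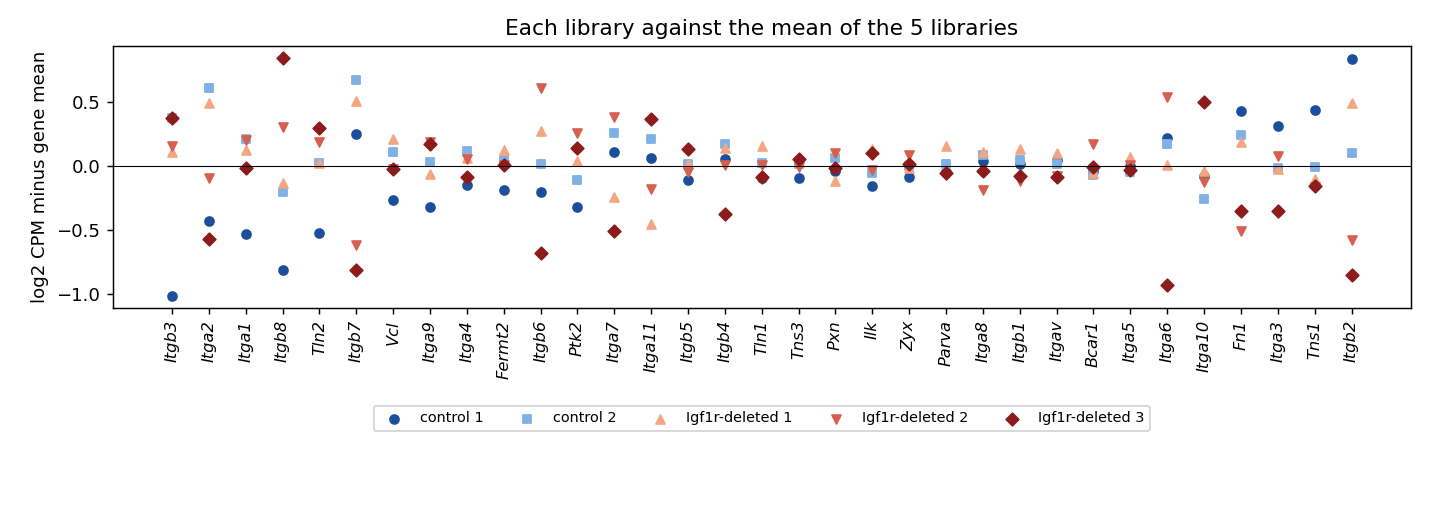
Log2 CPM of each library minus the mean of the 5 libraries, for the 33 genes ordered from those lowest in control 1 relative to control 2 (left) to those highest (right). Control 1 (dark blue circles) is far below the other libraries for Itgb3, Itga1 and Tln2 and above them for Tns1. Toward the middle of the plot the controls lie closer together, but Itgb6, Itga7 and Itga11 still spread within the Igf1r-deleted libraries.

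Other proteins of adhesions were described from a list of 55 genes, of which 54 were tested. Of these, 34 had a log2 fold change above 0 (median 0.049), 6 were higher and 2 lower at an unadjusted p-value under 0.05, and edgeR gave 0 of them an adjusted p-value under 0.05. Those 8 are 14.8% of the list, beside 12.4% of all genes. Without Igf1r-deleted replicates 1, 2 and 3 in turn, 11, 2 and 4 of the list passed. Over all genes those fits gave 3183 of 15138, 993 of 15100 and 1113 of 15153. The median of the list was 0.0019 without control replicate 1. Nedd9 and Cass4, which belong with Bcar1 and Efs to the Cas family of FAK-bound scaffolds, were among the higher genes. Efs and Bcar1 overlapped between the genotypes, with log2 fold changes of 0.094 and 0.096. Nedd9 had 305 and 318 CPM for the control pair and 380, 513 and 602 CPM with Igf1r deleted (log2 fold change 0.68, edgeR adjusted p = 0.354, DESeq2 adjusted p = 0.0463). Cass4 had 109 and 123 CPM for the control pair and 128, 209 and 248 CPM with Igf1r deleted (log2 fold change 0.74). For both genes the Igf1r-deleted libraries all lay above the controls, with replicate 1 the closest to them.

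Actn1, the α-actinin that crosslinks actin at adhesions, had 166 and 261 CPM for the control pair and 298, 334 and 311 CPM with Igf1r deleted. The log2 fold change of Actn1 was 0.56, and 0.27 without control replicate 1. The LIM domain genes Pdlim7 and Tgfb1i1 (Hic-5) had log2 fold changes of 0.58 and 0.40, also with no overlap between the genotypes. Limd1, another LIM domain gene, was lower, with 495 CPM in each control and 440, 383 and 393 CPM with Igf1r deleted (log2 fold change −0.29).

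Of 28 other integrin ligands 24 were tested, and 18 had a log2 fold change below 0 (median −0.11), beside 47.7% of all genes. The median was −0.018 without control replicate 2, −0.22 without control replicate 1, −0.19 without Igf1r-deleted replicate 1 and −0.039 with library totals. Only Thbs1, thrombospondin 1, passed an unadjusted p of 0.05 by edgeR, or 4.17% of the list beside 12.4% of all genes. By DESeq2 there were 5 such genes, beside 13.2% of all genes, and with the replicate block 4, beside 2056 of 15298. No such count is given where 1 control was left. Without Igf1r-deleted replicates 1, 2 and 3 in turn there were 7, 1 and 2 such genes. Over all genes those fits gave 3183 of 15138, 993 of 15100 and 1113 of 15153. Thbs1 had 7193 and 6062 CPM for the control pair and 4876, 2622 and 3103 CPM with Igf1r deleted, so that replicate 1 was again the closest to the controls, as for Fn1 (log2 fold change −0.91, edgeR adjusted p = 0.354, DESeq2 adjusted p = 0.0291). Npnt, which encodes the α8β1 ligand nephronectin, had 4168 and 5035 CPM for the control pair and 4389, 4040 and 4234 CPM with Igf1r deleted. The genotypes overlapped for Npnt, with a log2 fold change of −0.12 and a 95% interval of −0.47 to 0.22.

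Other receptors for the matrix were read from a list of 15 genes, all tested, that also holds the tetraspanins Cd9, Cd81 and Cd151. At an unadjusted p-value under 0.05, 2 were higher and 3 lower (33.3% of the list, beside 12.4% of all genes). Without Igf1r-deleted replicates 1, 2 and 3 in turn, 6, 3 and 3 of the list passed. Over all genes those fits gave 3183 of 15138, 993 of 15100 and 1113 of 15153. Counts passing are not given for fits that left 1 control, so the 33.3% is not shown to hold without either control. The median log2 fold change of the list was 0.024, and −0.091 without control replicate 1 or 0.14 without control replicate 2. Cd44, a hyaluronan receptor, had 248 and 382 CPM for the control pair and 466, 441 and 439 CPM with Igf1r deleted (log2 fold change 0.51). Sdc4, the syndecan that joins integrins at fibronectin adhesions, had 268 and 165 CPM for the control pair and 173, 117 and 125 CPM with Igf1r deleted, where replicate 1 lay above control replicate 2 (log2 fold change −0.65, and −0.26 without control replicate 1). Sdc3 was higher (log2 fold change 0.43), and the tetraspanin Cd9 and the laminin receptor Bcam were lower (−0.62 and −0.31). Neither edgeR nor DESeq2 gave any of the 15 an adjusted p-value under 0.05.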

How the data were processed

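RNA-Seq was analysed for 5 libraries, grouped by the genotype and replicate number of their labels. The deposited values are raw counts per gene symbol, which the authors made with Bioconductor's GenomicAlignments after trimming (Trim Galore) and mapping to mm10 (Bowtie2). Versions, the annotation and the strand setting are not given in the sources used here. Bowtie2 does not split a read over an intron, which can lower the counts of genes with many short exons such as integrins. This was not tested.

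Counts were tested with edgeR 4.0.16 (R 4.3.3, limma 3.58.1) by its quasi-likelihood test, two-sided, with TMM factors, filterByExpr, a term for genotype alone and p-values adjusted by Benjamini-Hochberg over 15298 genes. The 95% intervals use the fit's standard error and degrees of freedom. The script was tested on simulated data. Levels per kilobase used exon lengths of GENCODE M21 (mm10), which gave positions and overlaps for all 33 genes. With 2 libraries against 3, no exact permutation p is below 0.1, so none is given.

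The genes and lists were chosen with earlier results of these data known. Values by library are given for genes with an unadjusted p-value under 0.05 or no overlap between genotypes, for Fn1, Itgb1, Itgav, Itga5, Itga8, Ptk2, Ilk, Vcl, Tln1 and Pxn, and for up to 6 genes of each related list in order of p. The comparison was repeated with limma voom, with the Wald test of DESeq2 1.42.0, with its size factors, with upper-quartile factors, with library totals, with looser and stricter filters, with a replicate block and without each library in turn.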

Additional observations from a re-analysis of the deposited data

How the results depend on the processing

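Over all genes, edgeR gave 0 an adjusted p-value under 0.05, against 200 with DESeq2's Wald test, 136 with the replicate number as a block and 0 to 45 with each library left out. The 1897 genes at an unadjusted p-value under 0.05 became 433 to 3183 with each library left out, with 433 without control replicate 1, 3183 without Igf1r-deleted replicate 1, 993 without Igf1r-deleted replicate 2 and 1113 without Igf1r-deleted replicate 3. Of the 33 adhesion genes, 0 had an adjusted p-value under 0.05 in any of the 13 alternatives. The 2 at an unadjusted p-value under 0.05 became 4 with DESeq2's Wald test, 4 with limma voom, 4 with the replicate block, 5 with library totals, 5 with a filter of 1 count in 1 library or more and 0 to 7 with each library left out, with 0 when either control replicate 1 or Igf1r-deleted replicate 2 was left out. All genes gave 2025 of 15294 with DESeq2's Wald test and 2116 of 18645 with the filter of 1 count. Of 15298 genes, 1980 passed with limma voom, 2056 with the replicate block and 2087 with library totals. Where 1 control was left, it was assumed to vary like the other libraries. The numbers of 2 pairs do not show that libraries were paired (correlations of their deviations 0.208 and 0.121), so a call gained under the block is not read further.

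The median log2 fold change of the 33 genes was 0.039, with library totals 0.11 and with each library left out −0.061 to 0.11. That of the other adhesion proteins was 0.12 with library totals and 0.0019 to 0.080 with each library left out. For the list of other matrix receptors and tetraspanins it was 0.13 with the replicate block and −0.091 to 0.14 with each library left out. Shares of counts without division by exon length were 58.3% and 55.3% for Itga8, 84.6% for Itgb1 in controls, and 11.2% and 12.1% for Itgb5 (controls, then Igf1r-deleted), against 61.5%, 58.7%, 83.4%, 12.6% and 13.8% per kilobase.

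The log2 fold change turned for 5 of the 33 genes in the 8 settings that kept every library. With library totals it was 0.022 for Itgb1, 0.023 for Itgav and 0.055 for Pxn, and with the replicate block 0.099 for Itga2 and 0.078 for Itga6. With each library left out it crossed 0 for 11 of the 33, from −0.0034 to 0.23 for Fermt2, −0.11 to 0.63 for Itga1, −0.61 to 0.43 for Itga2, −0.11 to 0.15 for Itga4, −0.59 to 0.097 for Itga6, −0.17 to 1.22 for Itgb3, −0.042 to 0.54 for Itgb6, −0.049 to 0.065 for Parva, −0.085 to 0.027 for Pxn, −0.0080 to 0.12 for Tln1 and −0.061 to 0.32 for Vcl. The cause was not tested. The other 22 kept their direction with each library left out, and for the 5 whose genotypes do not overlap (Fn1, Tns1, Ptk2, Itgb8 and Ilk) that is fixed by the lack of overlap. The lowest count of the 33 genes in a library was 52 (Itgb6), so counting error is largest for such low genes.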
